A study of Mus musculus with 14 samples.

Results

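A set of 33 nuclear genes for the expression, translation and copying of mitochondrial DNA (mtDNA) were followed in female mouse hearts. They were taken from a fixed list of names, and all 33 were present in both deposited tables, which hold 42396 rows each, copies of genes included. The list holds 16 mitochondrial aminoacyl-tRNA synthetases, 5 transcription factors of mtDNA, 2 mRNA stability factors, 6 translation factors and 4 replication factors. All 33 passed the filter on low values (above 1 CPM, that is, counts scaled to library totals of equal size, in at least 1 library) in both experiments, so no member was lost.

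All 14 hearts came from female FS6KD mice, in which a gene trap in Ndufs6, a complex I subunit, gives a knockdown that is strongest in the heart. The mice have a mixed background of C57BL/6J and 129/Ola. In the knockout experiment, 4 Atf3+/+FS6KD hearts were compared with 4 Atf3-/-FS6KD hearts at 12 weeks, the deletion having been made with CRISPR-Cas9 in the germ line and thus being present in every cell type. In the AAV experiment, 3 hearts labelled MyoAAV2-shCtrl were compared with 3 labelled MyoAAV2-shAtf3, collected 12 weeks after neonatal injection of a muscle-directed adeno-associated virus that carried a short hairpin RNA. No Ndufs6 wild-type heart is part of these data, so every comparison is within FS6KD. The RNA came from the whole organ, and the question was how transcripts for energy metabolism respond when Atf3, a transcription factor induced by stress, is lost.

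Mitochondria carry their own small genome, which encodes subunits of the respiratory chain together with the ribosomal and transfer RNAs needed to make them. Every protein that copies, transcribes and translates this genome is encoded in the nucleus and imported. A single-subunit polymerase (Polrmt) with Tfam and Tfb2m transcribes it, Lrpprc with Slirp stabilises the transcripts, and bacterial-type factors (Mtif2, Mtif3, Tufm, Tsfm, Gfm1, Gfm2) with dedicated tRNA synthetases translate them. The heart depends on oxidative phosphorylation, and inherited defects in several of these genes cause cardiomyopathy.

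The targeted genes were examined first. Ndufs6 had 2.40 to 3.72 raw CPM in every library, whatever its group. Atf3 was at 6.24 to 25.4 raw CPM in Atf3+/+FS6KD and at 14.4 to 38.7 raw CPM in Atf3-/-FS6KD, so its count was not lower in the knockout, but it is a count over the whole gene, the deleted part was not counted on its own here, and the deletion was not checked. It was at 10.3 to 14.2 raw CPM in the libraries labelled shCtrl and at 12.1 to 20.8 raw CPM in those labelled shAtf3, and in that table the columns are named in reverse of the labels. Every direction given for the AAV experiment is therefore conditional on the labels. Total counts were 33914931 to 134920825 in the knockout experiment, in which replicates 3 and 4 of each genotype were deeper than replicates 1 and 2, and 30085432 to 40534913 in the AAV experiment. Markers of cardiomyocytes were abundant in all libraries, as the tissue label requires.

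Per length, Tufm led the list in Atf3+/+FS6KD and in the libraries labelled shCtrl. Levels were set as mean CPM per kilobase of the principal transcript in GENCODE, a scale on which genes can be compared with each other. Tufm, the elongation factor that brings aminoacyl-tRNA to the mitochondrial ribosome, was at 156 CPM per kb in Atf3+/+FS6KD and 134 CPM per kb in the libraries labelled shCtrl. Gfm1, the translocase of the elongating ribosome, was at 62.0 and 52.3 CPM per kb, and Lrpprc, which was below Gfm1 in the first group and above it in the second, was at 55.2 and 58.7 CPM per kb. Lars2, the leucyl-tRNA synthetase, stood at 120 and 115 CPM per kb, a value that is treated apart further down, and in the libraries labelled shAtf3 it was above Tufm, at 172 against 149 CPM per kb. The lowest level per length was that of Polg2, the accessory subunit of the mtDNA polymerase (2.38 and 2.03 CPM per kb). Mars2, the methionyl enzyme, was at 5.59 and 4.99 CPM per kb over its RefSeq gene of 2882 bases, used because its GENCODE transcript of 11294 bases runs past that gene, and would be lowest, at 1.43 and 1.27 CPM per kb, over the latter. The synthetases other than Lars2 ranged from Wars2, at 2.94 and 2.53 CPM per kb, to Fars2, at 38.7 and 36.7 CPM per kb, so enzymes with the same task for different amino acids were far apart.

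**Figure D1:**
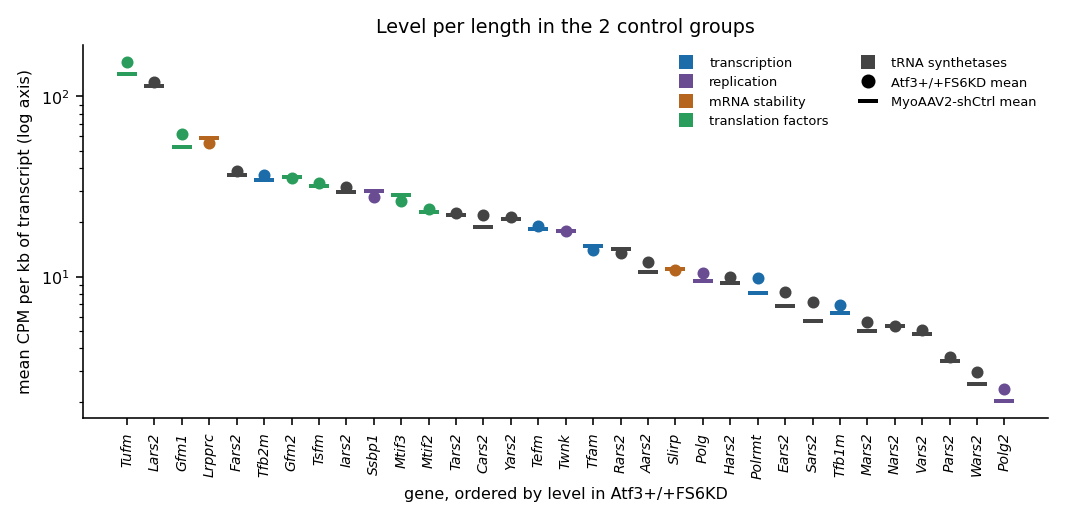
Mean CPM per kb of principal transcript (log axis, RefSeq gene length for Mars2) for the 33 genes, ordered by their level in Atf3+/+FS6KD (points), with the libraries labelled MyoAAV2-shCtrl beside it (dashes) and colours for the roles. Tufm is highest at 156 and 134 CPM per kb and Polg2 lowest at 2.38 and 2.03 CPM per kb.

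Promoter sequences of the members are shown because the genes of this pathway are known as targets of the nuclear respiratory factors NRF1 and GABP (an ETS factor). RefSeq promoters (GRCm38.p6, 250 bases before to 50 after the start) were found for 30 of the 33 members, and the first listed start was used for the 2 members with more than 1. The ETS core CCGGAAG was present on either strand in 14 of the 30 (46.7%), against 16.9% of the 11528 promoters of genes tested in the knockout comparison and 9.12% of all 27025 promoters. The NRF1 core GCGCATGC was in 5 of the 30 (16.7%), against 4.93% and 2.80%. The ATF/CREB palindrome TGACGTCA, a site of the ATF/CREB family, was in 0 of the 30, against 3.04% and 1.88%, which says only that these letters are not in this window. The E-box CACGTG was in 1 of the 30 (3.33%), the promoter of Ears2, against 9.79% and 7.24%. Among 51 promoters of other pathway genes, a list described further down, the ETS core was in 29.4%, the NRF1 core in 5.88%, the ATF/CREB palindrome in 15.7% and the E-box in 17.6%. Among 11 promoters of cytosolic tRNA synthetases the shares were 27.3%, 0%, 0% and 36.4% in that order. The differences between these lists were not tested. In the promoters of the members no matches overlapped each other (0 cases), and 15 of the 17 ETS matches began within 50 bases of the start. Polrmt and Rars2 were the 2 members with both cores. The lines give 140 bases before to 30 after the start for the polymerase with its 2 cofactors, for Rars2 and for Tufm, with capitals for an NRF1 core (GCGCATGC or its complement GCATGCGC) or an ETS core (CCGGAAG or its complement CTTCCGG).
Tfb2m (chr1:179546247-179546416, minus strand): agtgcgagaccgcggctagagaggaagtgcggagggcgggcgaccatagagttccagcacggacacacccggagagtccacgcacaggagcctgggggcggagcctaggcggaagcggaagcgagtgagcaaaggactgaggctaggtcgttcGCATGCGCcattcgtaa
Tfam (chr10:71238015-71238184, minus strand): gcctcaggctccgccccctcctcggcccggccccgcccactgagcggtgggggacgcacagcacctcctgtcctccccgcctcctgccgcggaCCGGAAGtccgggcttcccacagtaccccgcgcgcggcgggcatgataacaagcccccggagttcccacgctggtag
Polrmt (chr10:79746552-79746721, minus strand): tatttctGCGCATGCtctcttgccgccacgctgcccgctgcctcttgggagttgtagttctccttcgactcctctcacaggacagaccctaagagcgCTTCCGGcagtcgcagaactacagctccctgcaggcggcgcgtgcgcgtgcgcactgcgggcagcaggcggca
Rars2 (chr4:34614817-34614986, plus strand): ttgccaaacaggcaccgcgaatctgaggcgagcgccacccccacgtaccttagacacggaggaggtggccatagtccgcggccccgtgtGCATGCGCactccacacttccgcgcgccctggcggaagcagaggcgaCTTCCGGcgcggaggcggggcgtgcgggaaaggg
Tufm (chr7:126487215-126487384, plus strand): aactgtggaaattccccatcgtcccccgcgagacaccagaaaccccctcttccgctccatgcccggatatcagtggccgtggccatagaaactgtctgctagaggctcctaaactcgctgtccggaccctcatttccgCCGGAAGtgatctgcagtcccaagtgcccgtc
Counted from the start used here, Tfb2m holds an NRF1 core just behind its start and Tfam an ETS core before its start. Tufm holds an ETS core across its start, and Polrmt and Rars2 hold one of each. The start used can lie inside the gene. For Tfam the printed window is within the RefSeq gene, which on this minus strand begins at 71238328. A match is a description of the letters and does not show binding.

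The knockout comparison asked how these transcripts respond to the loss of Atf3. None was called: of 15592 genes tested with edgeR (quasi-likelihood test, adjusted p below 0.05), 0 passed (0%), and 0 of the 33 members passed, with adjusted p from 0.389 to 0.990. DESeq2 called 208 genes and limma-trend 0, and both called 0 members. In sign, 29 of 33 members were lower in Atf3-/-FS6KD with TMM scaling (49.8% of all genes were), but 20 of 33 with library size scaling, under which the median over all genes was 0.06 (log2) rather than 0.00. Against that median, 29 of 33 lay below it under both scalings. The median log2 fold change of the members was −0.09, as against 0.00 over all genes, and the same 0.09 below the rest under library size scaling. Without Lars2 it was −0.09 too, with 28 of 32 lower. At the level of single genes, 4 members were lower at an unadjusted p below 0.05 (Tfb2m, Fars2, Iars2 and Rars2), where 4.69% of all genes were, and the groups did not overlap for 3 (Tfb2m, Fars2 and Ears2), where 2.63% of all genes did so in that direction. None was higher by either measure. Leaving out 1 library moved the first count to 1 (without Atf3-/-FS6KD replicate 3) or 6 (without Atf3-/-FS6KD replicate 1). It moved the second to 8 (without Atf3-/-FS6KD replicate 1). With fewer libraries no overlap was more frequent among all genes as well (17.5% lower within replicates 1 and 2). With library size scaling 0 members were lower at an unadjusted p below 0.05 and 1 had no overlap. For these alternatives the shares of all genes are not given here.

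The AAV comparison asked the same with a knockdown meant for muscle. Of 15225 genes tested, 82 were called (0.539%), and 0 of the 33 members were, with adjusted p from 0.217 to 0.993. DESeq2 called 308 genes and limma-trend 85, and again 0 members. In sign, 31 of 33 members were higher in the libraries labelled shAtf3 with TMM scaling (49.1% of all genes were) and 25 of 33 with library size scaling, under which the median over all genes was −0.04. Against that median, 31 of 33 lay above it under both scalings. Their median log2 fold change was 0.11, against −0.00 over all genes, and 0.11 without Lars2 (30 of 32 higher). At the level of single genes, 7 were higher at an unadjusted p below 0.05 (Hars2, Yars2, Vars2, Lrpprc, Gfm1, Tufm and Lars2), where 5.05% of all genes were. The groups did not overlap for 10 (Fars2, Hars2, Vars2, Yars2, Tfam, Tfb1m, Lrpprc, Tufm, Gfm1 and Twnk), where 8.48% of all genes did so in that direction. None was lower by either measure. Without the library labelled shAtf3 replicate 3, 2 were higher at that p. With library size scaling 2 were higher at an unadjusted p below 0.05 and 5 had no overlap. For these alternatives too, the shares of all genes are not given here.

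**Figure D2:**
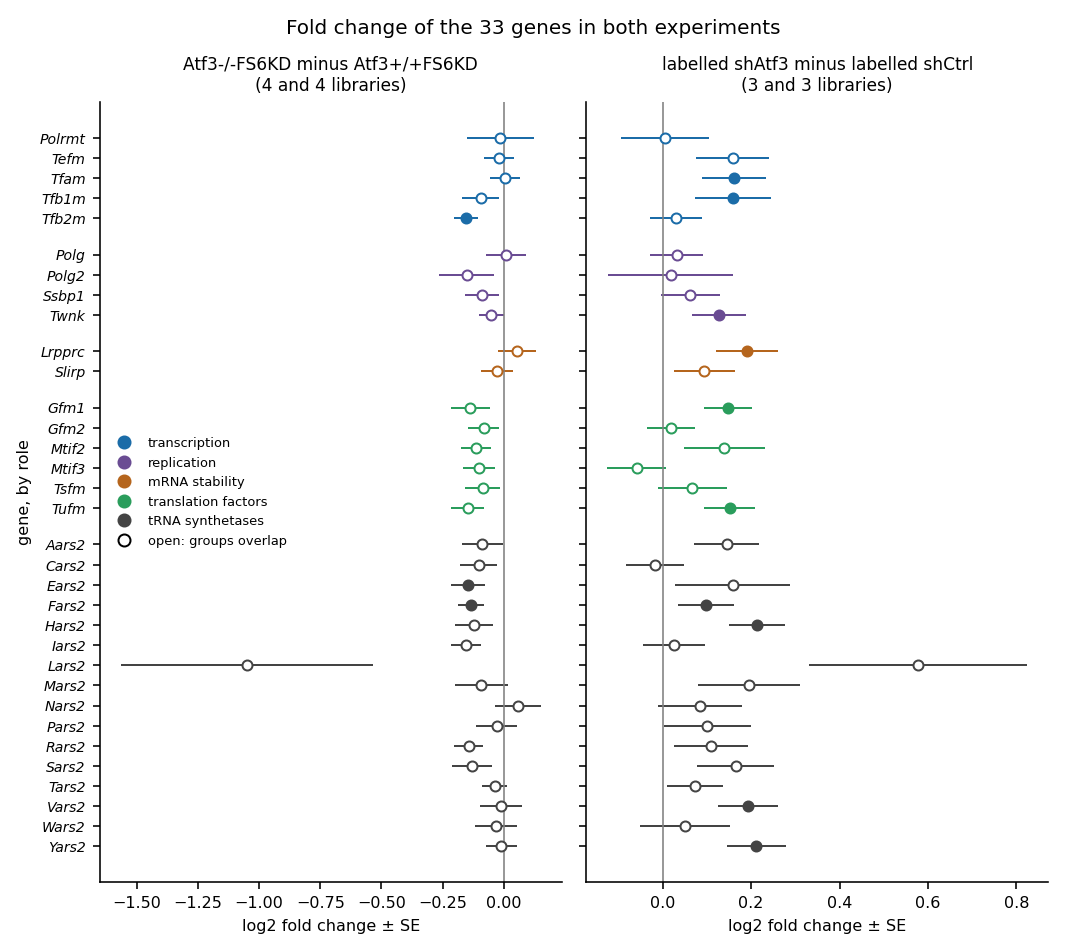
Log2 fold change ± SE (edgeR) of the 33 genes by role in the knockout experiment (left) and the AAV experiment as labelled (right), filled where the libraries of the 2 groups did not overlap. With TMM scaling 29 of 33 lie below 0 on the left and 31 of 33 above 0 on the right, but 20 and 25 with library size scaling, and no member passed the adjusted threshold. Lars2 stands apart in both with a long error bar.

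Read together, 27 of 33 members were lower in Atf3-/-FS6KD and higher in the libraries labelled shAtf3, 4 were higher in both and 2 lower in both. With the AAV labels exchanged, as the column names of that table would have it, the same values read as 27 of 33 lower in both experiments. No member had an unadjusted p below 0.05 in both (0 of 33), and Fars2 was the 1 member whose groups did not overlap in either experiment. For these joint counts of signs, p and overlap, the shares of all genes are not given here, so they are counts of the members only. The 2 experiments share no libraries, so the difference between their effects was tested directly, as an interaction term over the 14 libraries in edgeR. Its p-values rest on 1 spread per gene for both experiments, which may differ in spread. In 1 fit of all 14 libraries the knockout comparison called 33 genes, against 0 alone, and the AAV comparison 1, against 82 alone. The interaction called 26 of 15708 genes (0.166%) and 0 of 33 members, with adjusted p from 0.119 to 0.969. The knockout effect minus the AAV effect was negative for all 33 members in that fit, as for 49.9% of all genes, and 12 had an unadjusted p below 0.05, where 7.53% of all genes had one with a negative difference. The difference was −0.34 for Hars2 (log2, SE 0.10, adjusted p 0.119), −0.30 for Tufm (SE 0.09, adjusted p 0.124) and −0.23 for Fars2 (SE 0.08, adjusted p 0.150), the 3 smallest adjusted p of the list. All of this rests on the labels: with the AAV labels exchanged, an alternative added after seeing the data, the difference was negative for 12 of 33 members (50.9% of all genes), 0 of them at an unadjusted p below 0.05 (2.17% of all genes), and positive for 21, with 2 at that p. In that reading 0 genes were called, Hars2 was at 0.10 (SE 0.10), Tufm at 0.01 (SE 0.09) and Fars2 at −0.03 (SE 0.08).

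**Figure D3:**
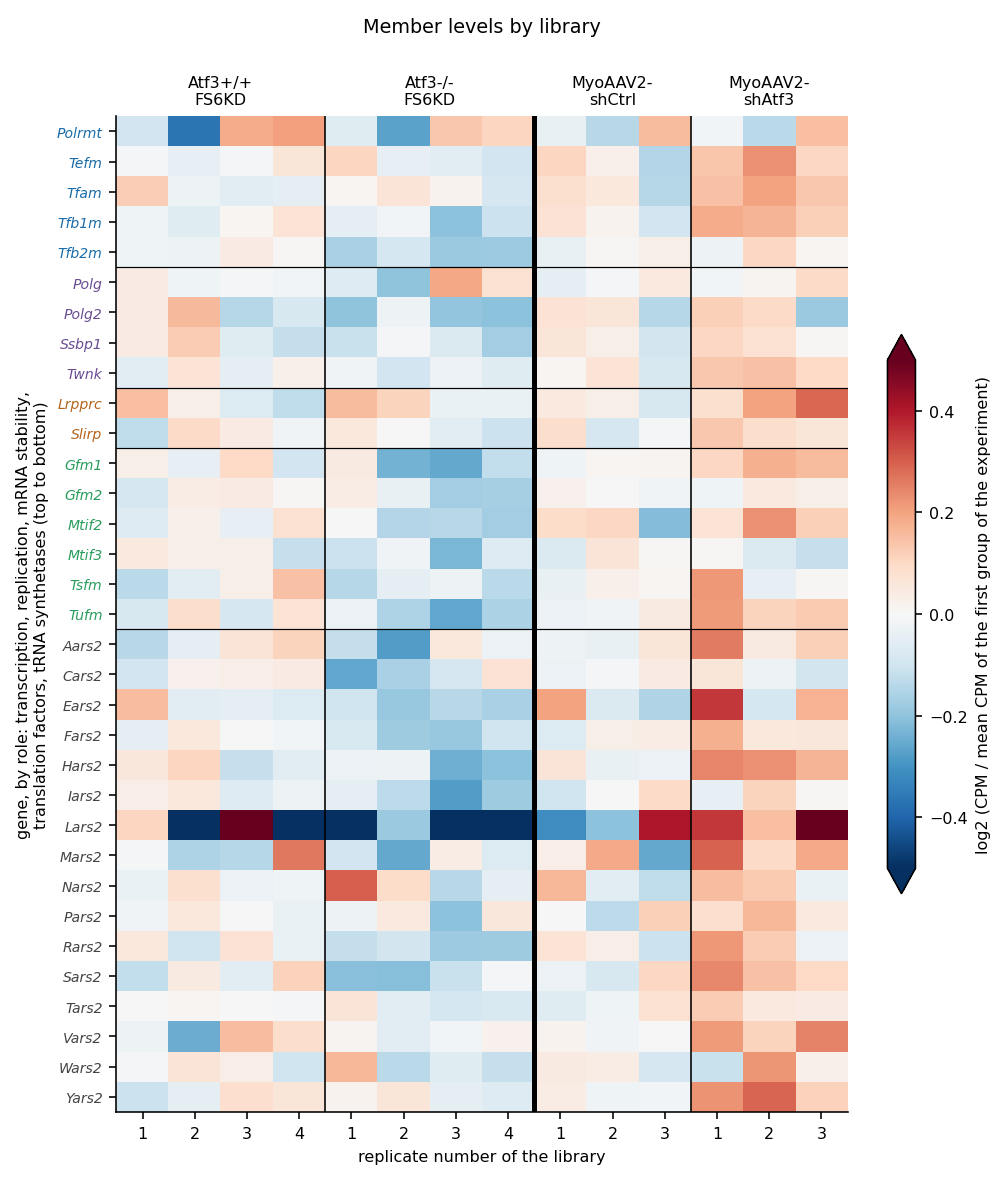
Level of each of the 33 genes (rows, by role) in each of the 14 libraries (columns), as log2 of CPM over the mean CPM of the first group of the same experiment. Lars2 aside, all 448 fields lie between −0.36 and 0.35. Blue prevails in Atf3-/-FS6KD replicates 2 to 4 and red in the 3 libraries labelled shAtf3, a pattern that shifts with the scaling (20 lower and 25 higher members of 33 with library size scaling).

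The transcription machinery of mtDNA was led by Tfb2m, the cofactor that opens the promoter for the polymerase. Tfb2m (chromosome 1, 179528052 to 179546305) was at 88.7, 88.3, 92.4 and 90.3 CPM in the 4 Atf3+/+FS6KD hearts, in the order of their replicate numbers as for all values that follow, and at 80.3, 84.5, 79.1 and 79.4 CPM in the 4 Atf3-/-FS6KD hearts. Each knockout library was below each control library. The log2 fold change was −0.15 (SE 0.05, unadjusted p 0.0104, edgeR adjusted p 0.389), the smallest p of the members and still short of the threshold. In the AAV experiment Tfb2m was at 82.2, 84.8 and 86.2 CPM in the libraries labelled shCtrl and at 82.9, 90.7 and 85.0 CPM in those labelled shAtf3, and these groups overlapped (log2 fold change 0.03, SE 0.06, −0.01 with library size scaling).

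For Tfam, which packages mtDNA and bends the promoter for transcription, the groups were apart in the AAV experiment and overlapped in the knockout experiment. Tfam was at 63.5, 57.3, 56.1 and 56.3 CPM in Atf3+/+FS6KD and at 58.7, 61.0, 59.0 and 55.0 CPM in Atf3-/-FS6KD (log2 fold change 0.00, SE 0.06). It was at 64.6, 63.4 and 55.4 CPM in the libraries labelled shCtrl and at 67.6, 70.3 and 67.1 CPM in those labelled shAtf3, all 3 above all 3 (log2 fold change 0.16, SE 0.07, adjusted p 0.393). Tfb1m, the related methyltransferase of the small ribosomal RNA, was at 9.27, 8.94 and 8.25 CPM against 10.02, 9.94 and 9.58 CPM there, again with no overlap (0.16, SE 0.09). In the knockout experiment Tfb1m was at 9.61, 9.36, 9.83 and 10.2 CPM in Atf3+/+FS6KD and at 9.45, 9.66, 8.47 and 9.07 CPM in Atf3-/-FS6KD, with overlap.

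Polrmt, the polymerase itself, was the most variable of the transcription genes within groups. It was at 34.4, 28.6, 41.9 and 42.4 CPM in Atf3+/+FS6KD and at 35.3, 30.6, 40.5 and 39.7 CPM in Atf3-/-FS6KD. In both genotypes replicates 3 and 4, the deeper libraries, were above replicates 1 and 2, and the log2 fold change was −0.02 (SE 0.14). It was at 29.8, 27.8 and 34.2 CPM in the libraries labelled shCtrl and at 30.3, 27.9 and 33.95 CPM in those labelled shAtf3, a log2 fold change of 0.01 (SE 0.10). Tefm, the elongation factor that keeps the polymerase on the template, was at 24.4 to 26.2 and 23.5 to 27.0 CPM in the knockout experiment and at 21.7 to 25.9 and 25.8 to 28.1 CPM in the AAV experiment, with overlap in both.

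Among replication genes the helicase Twnk had the clearest separation. Twnk was at 63.3, 66.0 and 59.5 CPM in the libraries labelled shCtrl and at 69.2, 69.7 and 67.4 CPM in those labelled shAtf3, with no overlap (log2 fold change 0.13, SE 0.06, adjusted p 0.428). It was at 60.7, 66.0, 61.0 and 64.0 CPM in Atf3+/+FS6KD and at 62.1, 58.9, 61.7 and 60.3 CPM in Atf3-/-FS6KD, which overlapped (−0.05, SE 0.05). Polg, the catalytic subunit of the mtDNA polymerase, was at 84.7, 81.1, 81.7 and 81.5 CPM in Atf3+/+FS6KD and at 78.7, 71.6, 94.0 and 86.7 CPM in Atf3-/-FS6KD. The control libraries of Polg lay close together and the knockout libraries spread around them on both sides (log2 fold change 0.01, SE 0.08). Polg was at 71.5, 73.7 and 76.5 CPM against 73.2, 74.5 and 78.9 CPM in the AAV experiment. Polg2 and Ssbp1, the single-strand binding protein, had log2 fold changes of −0.15 (SE 0.11) and −0.09 (SE 0.07) in the knockout experiment and of 0.02 (SE 0.14) and 0.06 (SE 0.07) in the AAV experiment, with overlap throughout.

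The mRNA stability pair was split in the knockout experiment. Lrpprc, an RNA-binding protein that protects and helps polyadenylate mitochondrial mRNA, was at 268.8, 247.6, 231.0 and 222.3 CPM in Atf3+/+FS6KD and at 270.2, 262.2, 237.0 and 236.9 CPM in Atf3-/-FS6KD. It was among the 4 members with a value above 0 there (log2 fold change 0.05, SE 0.08), and its groups overlapped. In the AAV experiment Lrpprc was at 266.4, 263.2 and 243.8 CPM in the libraries labelled shCtrl and at 272.2, 296.1 and 314.4 CPM in those labelled shAtf3, with no overlap (0.19, SE 0.07, unadjusted p 0.0234, adjusted p 0.310). Slirp, its small binding partner, had log2 fold changes of −0.03 (SE 0.07) and 0.09 (SE 0.07), with overlap in both experiments and a knockout value of 0.03 with library size scaling.

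The 6 translation factors lay on one side in the knockout experiment. All 6 had a negative log2 fold change in Atf3-/-FS6KD under TMM scaling and library size scaling alike, from −0.15 to −0.08 with TMM, none at an unadjusted p below 0.05 and none free of overlap. Tufm (chromosome 7, 126487271 to 126490731) was at 247.6, 277.9, 246.8 and 274.2 CPM in Atf3+/+FS6KD and at 256.4, 235.2, 218.8 and 234.2 CPM in Atf3-/-FS6KD. Replicate 1 of the knockout was the library that overlapped with the controls (log2 fold change −0.15, SE 0.07, unadjusted p 0.0590). Gfm1 was at 257.8, 245.8, 270.6 and 236.4 CPM against 260.9, 214.3, 211.4 and 232.3 CPM, and knockout replicate 1 was again within the range of the controls (−0.14, SE 0.08).

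In the AAV experiment the elongation factors Tufm and Gfm1 separated, higher in the libraries labelled shAtf3. With the labels exchanged they would be lower, the sign of the knockout experiment. Tufm was at 221.2, 222.8 and 233.1 CPM in the libraries labelled shCtrl and at 261.8, 243.5 and 246.8 CPM in those labelled shAtf3 (log2 fold change 0.15, SE 0.06, unadjusted p 0.0273, adjusted p 0.326). Gfm1 was at 210.1, 214.5 and 215.1 CPM against 229.4, 241.0 and 238.0 CPM (0.15, SE 0.05, unadjusted p 0.0229, adjusted p 0.306). Of the initiation factors, Mtif2 was at 47.6 to 59.5 and 58.1 to 64.8 CPM and Mtif3 at 33.7 to 37.0 and 32.7 to 35.6 CPM, with overlap, Mtif3 being 1 of the 2 members below 0 (−0.06, SE 0.07). Tsfm, which recharges Tufm with GTP, and Gfm2, which recycles ribosomes, had log2 fold changes of 0.07 (SE 0.08) and 0.02 (SE 0.05), and Gfm2 was at −0.02 with library size scaling.

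The tRNA synthetases formed the largest group, with 15 of 16 lower in the knockout experiment and 15 of 16 higher in the AAV experiment under TMM scaling. Library size scaling turned 5 of them in the knockout experiment (Pars2, Tars2, Vars2, Wars2 and Yars2) and Iars2 in the AAV experiment. Their median log2 fold changes were −0.10 and 0.13. Fars2, the phenylalanyl enzyme (chromosome 13, 36117428 to 36537595), was at 65.7, 70.2, 67.9 and 67.2 CPM in Atf3+/+FS6KD and at 64.3, 59.9, 59.4 and 63.3 CPM in Atf3-/-FS6KD. It was at 61.3, 65.6 and 65.9 CPM in the libraries labelled shCtrl and at 72.6, 66.7 and 66.9 CPM in those labelled shAtf3. Neither pair of groups overlapped, and the margins were narrow, with log2 fold changes of −0.13 (SE 0.05, unadjusted p 0.0275, adjusted p 0.438) and 0.10 (SE 0.06, unadjusted p 0.160).

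Iars2, Rars2 and Ears2 were the other synthetases that stood out in the knockout experiment. Iars2, the isoleucyl enzyme (chromosome 1, 185286642 to 185329419) was at 175.5, 177.8, 163.8 and 168.4 CPM in Atf3+/+FS6KD and at 166.0, 156.6, 141.3 and 151.7 CPM in Atf3-/-FS6KD. Knockout replicate 1 lay within the control range (log2 fold change −0.16, SE 0.06, unadjusted p 0.0334, adjusted p 0.459). It was at 150.0, 160.5 and 171.9 CPM against 156.2, 173.5 and 161.5 CPM in the AAV experiment, with overlap and 0.03 (SE 0.07). Rars2, the arginyl enzyme, was at 26.3, 23.7, 26.7 and 24.9 CPM in Atf3+/+FS6KD and at 23.4, 23.9, 22.4 and 22.5 CPM in Atf3-/-FS6KD (−0.14, SE 0.06, unadjusted p 0.0390, adjusted p 0.465), where control replicate 2 overlapped by less than 1 CPM. Rars2 was at 28.1, 27.4 and 24.9 CPM against 31.2, 29.2 and 26.2 CPM in the AAV experiment, with overlap. Ears2, the glutamyl enzyme, was at 18.7, 16.1, 16.2 and 15.96 CPM in Atf3+/+FS6KD and at 15.6, 14.7, 15.2 and 14.95 CPM in Atf3-/-FS6KD, with no overlap (−0.15, SE 0.07, unadjusted p 0.0691). It was at 16.2, 13.4 and 12.7 CPM against 18.1, 13.3 and 15.9 CPM in the AAV experiment, which overlapped.

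Tfb2m and Iars2 lie 11.6 and 5.88 Mb from Atf3 on chromosome 1, and that position is a measured fact beside their values. Of the 269 genes tested that start within 35 Mb of Atf3, 37 were lower in Atf3-/-FS6KD at an unadjusted p below 0.05 (13.8%), against 4.55% of the 14421 genes elsewhere, and 30 were higher (11.2%, against 5.25% elsewhere), so both directions were more frequent near Atf3. In the AAV comparison the shares were 9.81% and 7.75% for lower and 4.91% and 5.08% for higher. The width of this window was chosen after the values were seen. The part of this position in the values of Tfb2m and Iars2 was not tested.

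Hars2, Yars2 and Vars2 were the synthetases that separated most in the AAV experiment. Hars2, the histidyl enzyme, was at 32.3, 30.03 and 30.3 CPM in the libraries labelled shCtrl and at 36.5, 36.1 and 34.7 CPM in those labelled shAtf3 (log2 fold change 0.21, SE 0.06, unadjusted p 0.00790, adjusted p 0.217), the smallest p of the members in that experiment. In the knockout experiment it was at 34.5, 35.7, 30.6 and 31.9 CPM against 32.6, 32.6, 28.03 and 28.8 CPM, with overlap. Hars2 was also higher there in replicates 1 and 2 than in replicates 3 and 4 of the same genotype, and its log2 fold change of −0.12 had an unadjusted p of 0.147, which was 0.0226 with the depth batch as a term (edgeR adjusted p 0.355). Yars2, the tyrosyl enzyme, was at 33.8, 32.4 and 32.6 CPM against 38.5, 40.3 and 35.7 CPM in the AAV experiment (0.21, SE 0.07, adjusted p 0.243) and at 31.4, 32.7, 35.9 and 35.3 CPM against 34.2, 35.3, 32.6 and 32.3 CPM in the knockout experiment (−0.01, SE 0.06). Vars2, the valyl enzyme, was at 21.5, 21.0 and 21.3 CPM against 24.7, 23.01 and 25.3 CPM in the AAV experiment (0.19, SE 0.07, adjusted p 0.288), and at 22.0, 18.9, 24.9 and 23.9 CPM against 22.6, 21.6, 22.2 and 22.8 CPM in the knockout experiment. The table also lists 2 copies of Vars2 at 6.28 to 10.7 CPM with identical values, so reads may be split and its values are uncertain. With the copies merged into Vars2, its log2 fold change in the knockout experiment moved from −0.01 to −0.14 (unadjusted p 0.0517, edgeR adjusted p 0.498), while that in the AAV experiment was 0.19.

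The other synthetases (Aars2, Cars2, Mars2, Nars2, Pars2, Sars2, Tars2 and Wars2) overlapped between the groups in both experiments. Their log2 fold changes ran from −0.13 for Sars2 to 0.06 for Nars2 in the knockout experiment and from −0.02 for Cars2 to 0.20 for Mars2 in the AAV experiment. They charge mitochondrial tRNA with alanine, cysteine, methionine, asparagine, proline, serine, threonine and tryptophan in that order.

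Lars2 stood apart from all other members in size and spread. It was at 502.5, 286.6, 909.4 and 165.9 CPM in Atf3+/+FS6KD and at 155.5, 409.9, 177.8 and 158.0 CPM in Atf3-/-FS6KD, a log2 fold change of −1.05 (SE 0.51, unadjusted p 0.0711, adjusted p 0.531). It was at 362.6, 390.4 and 595.4 CPM in the libraries labelled shCtrl and at 574.6, 499.2 and 939.5 CPM in those labelled shAtf3 (0.58, SE 0.25, unadjusted p 0.0433, adjusted p 0.375). The groups overlapped in both experiments, and replicates of 1 genotype differed by several fold. Single libraries set these values: the knockout value of Lars2 was −0.50 without Atf3+/+FS6KD replicate 3 and −1.51 without Atf3-/-FS6KD replicate 2 (unadjusted p 0.0174, edgeR adjusted p 0.560). In the AAV experiment it was 0.26 when replicate 3 of those labelled shAtf3 was left out and 0.83 when replicate 3 of those labelled shCtrl was (unadjusted p 0.00502, edgeR adjusted p 0.126). The libraries high in Lars2 were also high in Rn28s1, which stands for 28S ribosomal RNA, a transcript without a poly(A) tail. Rn28s1 was at 25.04, 14.2, 114 and 11.52 CPM in Atf3+/+FS6KD and at 6.02, 21.3, 9.73 and 8.94 CPM in Atf3-/-FS6KD. It was at 15.8, 15.5 and 45.3 CPM in the libraries labelled shCtrl and at 43.3, 43.8 and 59.3 CPM in those labelled shAtf3. In each of the 4 groups, the library with the highest Lars2 was the library with the highest Rn28s1.

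Part of the last exon of Lars2 (chromosome 9, 123461499 to 123462664) resembles other transcripts. BLAST of this exon against GENCODE transcripts found a stretch of its 3′ UTR (123462048 to 123462119) that shares 72 aligned bases with Gm15564 at 98.6% identity, and AA474408 matched 97 bases at 94.8%. Gm15564 was at 60.9, 34.2, 126.1 and 18.5 CPM in Atf3+/+FS6KD and at 18.9, 51.7, 17.5 and 18.6 CPM in Atf3-/-FS6KD, the same order of libraries as Lars2 in the control group but not in the knockout group, where replicate 2 was highest for both. Gm46178, a predicted gene, had its highest knockout-experiment value, 112.6 CPM, in that same control replicate 3, and Rn7sk, a small nuclear RNA without a poly(A) tail, was at 7.71 CPM there and at 0.302 to 2.80 CPM in the other 7 libraries. These 5 genes were chosen after the values were seen. Their part in the value of Lars2 was not tested, and the summaries of the members are given with and without Lars2 for this reason.

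**Figure D4:**
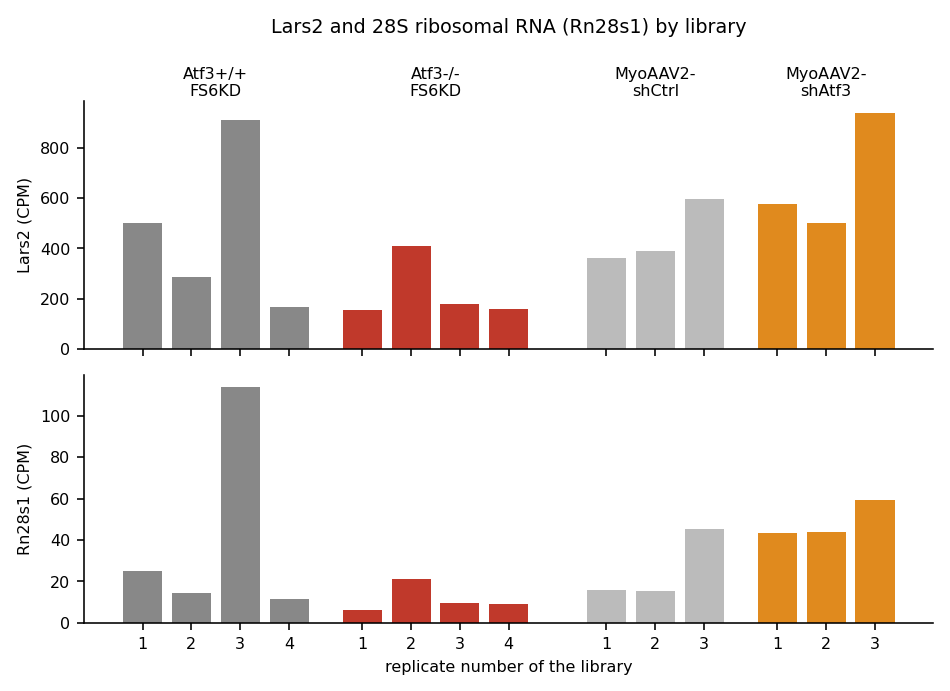
CPM of Lars2 (top) and of Rn28s1, 28S ribosomal RNA (bottom), in each of the 14 libraries, 1 bar per library. The tallest bar of each of the 4 groups falls on the same replicate in both panels, replicate 3 of Atf3+/+FS6KD at 909.4 and 114 CPM among them.

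Other genes of the pathway, 61 names fixed with the members, were set beside them. They include tRNA processing and modification, RNA polyadenylation and decay, ribosome recycling and mtDNA maintenance, and 60 were tested. In the knockout experiment 45 of 60 were lower under TMM scaling (median log2 fold change −0.06), 4 at an unadjusted p below 0.05 (4.69% of all genes), 0 higher at that p and 0 called. With library size scaling 29 of 60 were lower there, with a median of 0.00, and 1 was lower and 3 higher at that p. In the libraries labelled shAtf3, 55 of 60 were higher under TMM scaling (median 0.13), 16 at an unadjusted p below 0.05 (5.05% of all genes) and 0 called, and with library size scaling 50 of 60 were higher (median 0.09), 8 at that p. For the counts with library size scaling, the shares of all genes are not given here. The 3 genes described next had an unadjusted p below 0.05 in both experiments, and the share of all genes that did is not given here. Nsun4, a methyltransferase of mitochondrial ribosomal RNA, was at 48.3, 50.4 and 49.4 CPM in the libraries labelled shCtrl and at 57.1, 57.7 and 54.5 CPM in those labelled shAtf3 (log2 fold change 0.19, SE 0.06, adjusted p 0.221), and had −0.15 (SE 0.06, adjusted p 0.476) in the knockout experiment. Hsd17b10, a subunit of mitochondrial RNase P, had −0.18 (SE 0.06, adjusted p 0.417) and 0.18 (SE 0.07, adjusted p 0.306), with no overlap in either. Osgepl1, which modifies mitochondrial tRNA, had −0.18 (SE 0.07) and 0.17 (SE 0.07).

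The cytosolic tRNA synthetases, which do the same chemistry for nuclear messages, had medians near 0 under TMM scaling. In the knockout experiment their median log2 fold change was −0.01 with 10 of 18 lower, and 1 (Dars, the cytosolic aspartyl enzyme) was lower at an unadjusted p below 0.05. In the AAV experiment the median was −0.01 with 10 of 18 lower and 0 at an unadjusted p below 0.05. With library size scaling 6 of 18 were lower in the knockout experiment (median 0.05, 1 higher and 0 lower at that p). Under it 13 of 18 were lower in the AAV experiment (median −0.05). Shares of all genes under that scaling are not given here. Summed over the list they were at 1074 to 1197 CPM in Atf3+/+FS6KD and 1035 to 1149 CPM in Atf3-/-FS6KD, and at 1091 to 1287 and 1134 to 1180 CPM in the AAV experiment. The difference between this list and the members was not tested.

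Levels were also summed over the members. Without Lars2 the 32 genes summed to 1995 to 2025 CPM in Atf3+/+FS6KD and to 1835 to 2002 CPM in Atf3-/-FS6KD, which overlapped by 1 library. They summed to 1881 to 1901 CPM in the libraries labelled shCtrl and to 2032 to 2055 CPM in those labelled shAtf3, which did not overlap. The mean log2 CPM of the 32 genes, in which every gene counts alike, was 5.31 to 5.34 against 5.23 to 5.30 and 5.21 to 5.26 against 5.31 to 5.36.

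Of 11 known regulators of the pathway, 4 were lower in Atf3-/-FS6KD and higher in the libraries labelled shAtf3 under TMM scaling (Ppargc1a, Ppargc1b, Gabpa and Atf5). Of these 0 were called, and the share of all genes with these signs is not given here. With library size scaling 3 of the 11 were lower in Atf3-/-FS6KD. Ppargc1a, the coactivator of mitochondrial biogenesis, was at 108.5, 108.1 and 97.6 CPM in the libraries labelled shCtrl and at 128.5, 128.3 and 123.9 CPM in those labelled shAtf3, with no overlap (log2 fold change 0.28, SE 0.06, unadjusted p 0.00164, adjusted p 0.121). It was at 137.4, 121.4, 97.4 and 122.3 CPM in Atf3+/+FS6KD and at 109.6, 98.2, 108.0 and 98.8 CPM in Atf3-/-FS6KD, which overlapped (−0.21, SE 0.10). Nrf1, the factor behind the NRF1 core, had the opposite signs, at 0.15 (SE 0.07) and −0.16 (SE 0.10). Gabpa, the ETS subunit of GABP, was at −0.03 (SE 0.07) and 0.05 (SE 0.06), and Esrra, a nuclear receptor that works with Ppargc1a, at 0.01 (SE 0.17) and 0.11 (SE 0.08). Gabpb1, a partner subunit of Gabpa in GABP, named after its values were seen, was at 11.8, 11.1, 11.0 and 12.2 CPM in Atf3+/+FS6KD and at 13.7, 13.6, 12.4 and 13.5 CPM in Atf3-/-FS6KD, with no overlap (0.21, SE 0.07, unadjusted p 0.0174, edgeR adjusted p 0.404), and had 0.02 (SE 0.10) in the AAV experiment. None of these 5 passed the adjusted threshold.

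Of the mitochondrial genome itself, the ribosomal RNAs mt-Rnr1 and mt-Rnr2 were examined, and its protein-coding genes were not analysed here. mt-Rnr2 was at 6129, 5134, 5812 and 3208 CPM in Atf3+/+FS6KD and at 5397, 5460, 6007 and 5816 CPM in Atf3-/-FS6KD. It was at 7850, 7472 and 7559 CPM in the libraries labelled shCtrl and at 6778, 8853 and 8959 CPM in those labelled shAtf3. The groups overlapped in both experiments, and control replicate 4 of the knockout experiment was the lowest library.

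Markers of other cell types were set beside the members. All 8 fibroblast markers were higher in Atf3-/-FS6KD, 7 at an unadjusted p below 0.05 and 0 called, with a median log2 fold change of 0.33, and their summed level was 1657 to 1972 CPM in Atf3+/+FS6KD and 2006 to 2610 CPM in Atf3-/-FS6KD. All 8 were lower in the libraries labelled shAtf3, 4 of them called, with a median of −0.50 and summed levels of 2141 to 2783 against 1646 to 1720 CPM. The 10 cardiomyocyte markers had medians of −0.15 (8 of 10 lower) and 0.10 (9 of 10 higher), with summed levels of 64660 to 77200 against 54230 to 72050 CPM and of 60470 to 67930 against 65130 to 70190 CPM. Macrophage markers had medians of 0.27 (6 of 7 higher) and −0.17 (6 of 7 lower), smooth muscle and pericyte markers of 0.11 (5 of 6 higher) and −0.08 (5 of 6 lower), and endothelial markers of 0.07 and 0.04 with 0 at an unadjusted p below 0.05 in either experiment. No fibroblast, cardiomyocyte or macrophage marker was at 0 in any group mean, while Sln of the atrial list was at 0 in the libraries labelled shAtf3. In whole tissue, fewer cells of a type and less RNA per cell cannot be told apart, and the part of these markers in the members' values was not tested.

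**Figure D5:**
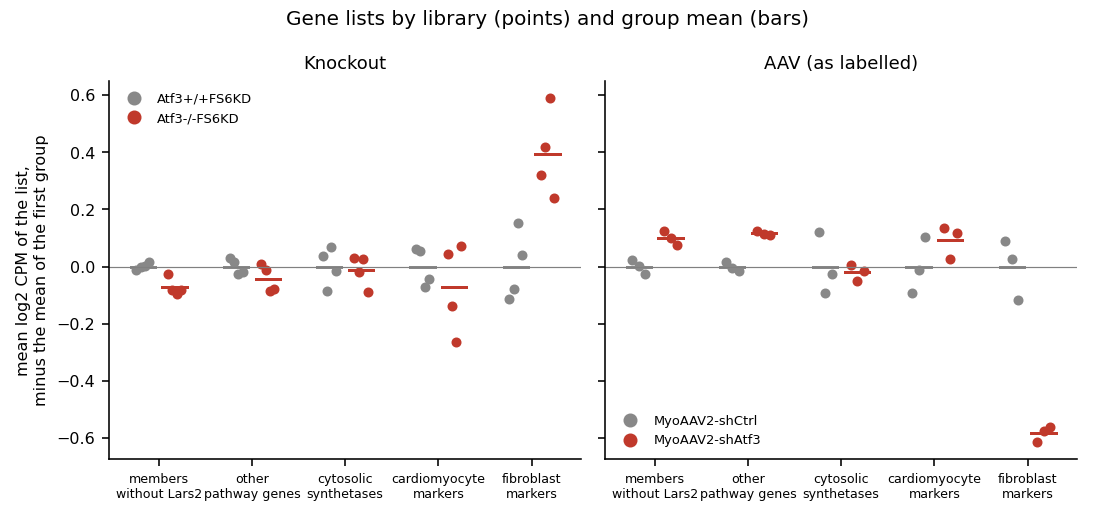
Mean log2 CPM of 5 gene lists in each library (points) with the group mean (bars), set against the mean of the first group, in the knockout experiment (left) and the AAV experiment as labelled (right). The 32 members without Lars2 separate in both (5.31 to 5.34 against 5.23 to 5.30 and 5.21 to 5.26 against 5.31 to 5.36, with TMM scaling) while fibroblast markers lie on the other side.

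Depth was examined last, since it differed within both genotypes of the knockout experiment. Within replicates 1 and 2 the median log2 fold change of the members was −0.08, 22 of 33 were lower and 0 were lower at an unadjusted p below 0.05. Within replicates 3 and 4, the deeper libraries, the median was −0.10 and 30 of 33 were lower. With the batch as a term 29 of 33 were lower and 0 were called.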

How the data were processed

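RNA from whole hearts was made into stranded mRNA libraries and sequenced. The study states single-end sequencing for the knockout experiment, and for the AAV experiment the mapping is not given in the sources used here. Per the submitters' processing notes, genes were counted with featureCounts 2.0.0 on GRCm38 (patch 6). The values deposited by the authors are estimated counts of each gene in each library, neither normalized nor pooled. Of the 42396 values of a library, 19.3% to 24.4% were not whole (no tolerance), so all were rounded before testing, although whole counts had been assumed when the tests were chosen. The use of strand in counting is not given, so genes that overlap on opposite strands cannot be told apart. Rows with a number added to a symbol (2379) were read as copies on alternate loci.

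Libraries were grouped by their GEO titles, and in the AAV table columns named for Atf3 belong to libraries titled shCtrl and those named as controls to libraries titled shAtf3. All deposited sample columns were used (0 left out). The study calls the replicates of the knockout experiment biological replicates. For the AAV libraries the labels do not say that they are separate animals, so p-values there measure the spread between these libraries, which may be technical. As in the study, a gene had to exceed 1 CPM in 1 or more libraries of a comparison, and it was then tested in edgeR 4.0.16 (TMM, two-sided quasi-likelihood F-test, p adjusted over all genes by Benjamini-Hochberg, threshold 0.05) on the 2 groups of an experiment. The study itself used a test per gene at an unadjusted threshold. CPM are TMM-scaled unless called raw. The SE of a log2 fold change was its size over the root of F. The interaction was fitted over all 14 libraries. DESeq2 1.42.0, limma 3.58.1 (trend, prior count 2), library size scaling, no filter, 1 fit of all libraries, merged copies, a replicate block, the depth batch and leaving out each library were alternatives. Scripts were tested on simulated data.

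The members and lists were chosen with earlier results of these data known. All 33 members are named; values of every library are given where the groups did not overlap or the unadjusted p was below 0.05 in either comparison, and for Tfam, Polrmt, Tfb2m, Lrpprc, Tufm, Polg and Twnk. From other lists, up to 4 genes are named whose unadjusted p was under 0.05 in each comparison, as are Ppargc1a, Nrf1, Gabpa and Esrra; 1 further gene is not reported here. Locations and promoters are from RefSeq (GRCm38.p6, all 33 members matched), transcript lengths (for Mars2 the RefSeq gene) and sequences from GENCODE M21, and matches to the last exon of Lars2 from BLAST (nucleotide, version 2.17.0).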

Additional observations from a re-analysis of the deposited data

Results flagged for a closer look

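A library far from the other 3 of its group, by the gap to its neighbour over the range of the group, was found in 7 of the 66 member and group pairs tested in the knockout experiment, where chance gives about 1 in 20. In Atf3+/+FS6KD, replicate 1 was lowest for Cars2 (39.4 CPM, next 42.6) and highest for Ears2 (18.7 CPM, next 16.2) and Tfam (63.5 CPM, next 57.3). Replicate 2 was highest for Nars2 (21.3 CPM, next 19.8), and replicate 4 was lowest for Mtif3 (30.5 CPM, next 33.7). In Atf3-/-FS6KD, replicate 2 was highest for Lars2 (410 CPM, next 178) and for Polg2 (3.52 CPM, next 3.12).

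Without Atf3+/+FS6KD replicate 1 the log2 fold change of Tfam was 0.05, and it turned below 0 without 5 of the other libraries, singly. Groups of 3 libraries, as in the AAV experiment, were not examined in this way.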

How the results depend on the processing

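Over the 66 values of single members, 1087 alternatives were run, of which 1022 kept the direction and the side of the threshold and 65 reversed. No member was called under any of them (0 of 33 in each). The count of genes called did depend on the setting: in the knockout comparison it was 0, and 208 with DESeq2, 33 in 1 fit of all 14 libraries, 8 within replicates 3 and 4, 2 with no filter and 0 to 15 without 1 library. In the AAV comparison it was 82, and 308 with DESeq2, 304 with no filter, 1 in 1 fit of all libraries and 1 to 285 without 1 library.

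With library size scaling the median of the members was −0.0259 in the knockout comparison, with 0 lower at an unadjusted p below 0.05. In that comparison 1 was lower with no overlap. In the AAV comparison the median was 0.0688, with 2 higher at that p and 5 higher with no overlap. Shares of all genes for these counts are not given here. The signs turned for Pars2 (0.032), Tars2 (0.023), Vars2 (0.0484), Wars2 (0.0296), Yars2 (0.0505), Polrmt (0.0446), Tefm (0.0396), Slirp (0.0347) and Twnk (0.0112) in the knockout comparison and for Iars2 (−0.0131), Polrmt (−0.0348), Tfb2m (−0.0092), Gfm2 (−0.0208), Polg (−0.008) and Polg2 (−0.0222) in the AAV comparison. The median over all genes was 0.0618 and −0.0428 under that scaling, and 29 and 31 members stayed on their side of it. Why the signs turned was not tested.

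Within knockout replicates 1 and 2, 0 members were lower at an unadjusted p below 0.05, 11 lower and 2 higher with no overlap (17.5% and 18.6% of all genes), and the signs turned for Tars2 (0.0035), Vars2 (0.1136), Yars2 (0.1197), Polrmt (0.0648), Tfam (−0.0103), Tfb1m (0.0137), Tefm (0.0642), Slirp (0.0429), Tsfm (0.0065), Gfm2 (0.0272) and Polg (−0.1383). Within replicates 3 and 4, 21 were lower and 2 higher with no overlap (19.7% and 20.5% of all genes) and Nars2 was at −0.0708. DESeq2 put Tfam at −6e-04.

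Leaving out 1 library, knockout members lower at an unadjusted p below 0.05 numbered 1 (without Atf3-/-FS6KD replicate 3) to 6 (without Atf3-/-FS6KD replicate 1). Those with no overlap numbered 3 to 8 (without Atf3-/-FS6KD replicate 1). Shares of all genes without 1 library are not given here. The AAV members higher at that p numbered 2 (without shAtf3 replicate 3) to 7, with a median of 0.0829 to 0.1406. Knockout ranges that crossed 0 were Tfam −0.0169 to 0.047, Slirp −0.0666 to 0.0033, Vars2 −0.0841 to 0.0415, Yars2 −0.0444 to 0.0172, Polrmt −0.1175 to 0.06, Mars2 −0.1416 to 0.01, Nars2 −0.0299 to 0.1174, Wars2 −0.1013 to 0.0004, Pars2 −0.0597 to 0.0267, Polg −0.0587 to 0.0735 and Tefm −0.0644 to 0.004. In the AAV comparison they were Iars2 −0.0219 to 0.0765, Polrmt −0.072 to 0.0914, Cars2 −0.0589 to 0.0176, Polg2 −0.0471 to 0.1074, Tsfm −0.0158 to 0.1263, Wars2 −0.0323 to 0.1271 and Polg −0.0006 to 0.0576. The cause was not tested.

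Same-numbered libraries had correlations of their deviations of 0.0415 to 0.205 in the knockout experiment and −0.0281 to 0.168 in the AAV experiment. Libraries with different numbers had −0.295 to 0.244 and −0.214 to 0.138, and not every library correlated best with its own number. The numbers are those of the titles, and some columns of the knockout table carry other numbers. In that experiment replicates 3 and 4 were also deeper in both genotypes. These values do not settle whether the replicate numbers pair the libraries. With the replicate block 0 genes were called in the knockout comparison and 20 in the AAV comparison, 0 members in each, with 4 members lower and 8 higher at an unadjusted p below 0.05 and medians of −0.0869 and 0.1073.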

Other observations

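The enzymes that charge both cytosolic and mitochondrial tRNA from 1 gene, Kars for lysine and Gars for glycine, overlapped between groups. Kars had log2 fold changes of −0.07 in the knockout and −0.01 in the AAV experiment, and Gars had −0.03 and 0.12. Summed, they were at 197 to 214.1 CPM in Atf3+/+FS6KD and 185.7 to 206 CPM in Atf3-/-FS6KD, and at 200.7 to 235.9 and 218.5 to 241.6 CPM in the libraries labelled shCtrl and shAtf3, with overlap in both.

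Among the other pathway genes with TMM scaling, the 14 for RNA polyadenylation, decay and stability had medians of −0.05 and 0.16 in the knockout and AAV experiments, with 13 of 14 above 0 in the latter. The 18 for tRNA and rRNA processing and modification had medians of −0.06 and 0.16, and 7 of them were above 0 at an unadjusted p below 0.05 in the AAV experiment (5.05% of all genes), 0 at the adjusted threshold. The 12 for mtDNA maintenance had medians of −0.03 and 0.07, with 0 at an unadjusted p below 0.05 in either experiment.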
